A study of Mus musculus with 12 samples.

Results

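Homologous recombination repairs a DNA double-strand break by copying the intact sister DNA, and 9 of its genes are described here: Brca1, Brca2, Bard1, Palb2, Rad51ap1, Rad54l, Exo1, Blm and Rbbp8. They were taken by name, as all probes whose transcript accession maps to one of these genes. They made up 9 of the 17305 named genes on the array and 11 of its 41174 probes, with 2 probes each for Brca1 and Brca2. A gene was tested when every array of some group had it well above background, as for 7 of the 9. Bard1 and Palb2 did not pass this filter.

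In this pathway the broken ends are first trimmed to single strands, repair proteins then coat the single strand, and the coated strand finally pairs with the matching sequence. Rbbp8 (also called CtIP) starts the trimming, and the nuclease Exo1 and the helicase Blm extend it. Brca1 with its partner Bard1 promotes trimming and brings in Palb2 and Brca2, which prepare the single strand for pairing, while Rad51ap1 and the motor protein Rad54l help it pair with the intact DNA. The pathway works while a sister copy exists, in S and G2 phase, and its genes are mostly expressed in dividing cells.

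RNA came from mouse embryonic fibroblasts, the connective-tissue cells grown out of embryos. ATM is the kinase that signals double-strand breaks, and it was present in ATM-WT and missing in ATM-KO cells. The 4 groups were nonirradiated ATM-WT, irradiated ATM-WT, nonirradiated ATM-KO and irradiated ATM-KO, with 3 samples in each, all from cultures kept for 72 h (day 3 in the labels). Irradiated cells had received 4.32 Gy. How Atm was disrupted, the embryos and passage of the cells and the dose rate are not given in the sources used here. RNA of each sample went on an array of its own in 1 colour, 12 arrays in all. Samples carry the numbers 1 to 3 in each group, and nothing in the labels calls them separate cultures. The p-values therefore weigh differences against a spread between samples that could be technical.

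Both Atm probes were dim. The single-spot probe was well above background on 5 of 6 ATM-WT arrays and on 1 of 6 ATM-KO arrays, and the 10-spot probe on 4 and 0. All 11 fibroblast markers were well above background on all 12 arrays, at a summed level of 1437 to 2695 times the array's 75th percentile of signal. Macrophage and blood markers summed to 1.89 to 4.70 in ATM-WT and to 0.264 to 0.503 in ATM-KO samples, with 3 of 11 above background on all arrays, and their part in any genotype difference was not tested. The 75th percentile of signal was 608 (nonirradiated ATM-WT replicate 1), 757 (irradiated ATM-WT replicate 1) and 708 (irradiated ATM-KO replicate 1) against 379 to 513 on the other 9 arrays. The arrays lay on 3 slides, with ATM-WT pairs 1 and 2 on slide 1, ATM-WT pair 3 and ATM-KO pair 1 on slide 2, and ATM-KO pairs 2 and 3 on slide 3. Nonirradiated samples always took positions 1 and 3 of a slide and irradiated samples positions 2 and 4, so that position and irradiation cannot be told apart.

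Levels below are on a log2 scale of processed signal on which the 75th percentile of each array is 0. A level of one probe is not comparable with that of another, so each gene is compared only with itself.

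The sequences just upstream of the start site are shown for the 5 tested members with a window in the promoter table. Exo1 and Rbbp8 have none there. Of the 5, Rad54l and Rad51ap1 were lower after irradiation in every pair of samples. Brca1, Brca2 and Blm varied mostly with the replicate number. Rad51ap1 did both, being higher by 0.89 on the arrays numbered 1 than on the others. Each line gives the 250 bases before the RefSeq start site (GRCm38.p6), read 5′ to 3′ on the gene's own strand. Capitals mark matches on either strand to the NF-Y box, CCAAT, or to an E2F motif. The 4 E2F forms searched were TTTCCCGC, TTTCGCGC, TTTGGCGC and TTTGCCGC, and the CHR element TTTGAA was searched as well.
Rad54l, chr4:116123691-116123940, minus strand: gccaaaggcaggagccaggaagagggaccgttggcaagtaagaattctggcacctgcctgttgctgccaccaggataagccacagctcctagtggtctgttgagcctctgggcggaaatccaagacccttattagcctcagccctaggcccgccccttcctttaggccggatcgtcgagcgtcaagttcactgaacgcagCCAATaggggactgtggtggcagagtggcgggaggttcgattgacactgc
Rad51ap1, chr6:126939588-126939837, minus strand: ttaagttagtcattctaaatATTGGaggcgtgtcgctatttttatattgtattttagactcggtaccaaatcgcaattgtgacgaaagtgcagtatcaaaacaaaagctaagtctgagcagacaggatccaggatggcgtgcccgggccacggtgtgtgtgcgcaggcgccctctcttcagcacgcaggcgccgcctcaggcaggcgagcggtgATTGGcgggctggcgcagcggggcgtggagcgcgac
Brca1, chr11:101551956-101552205, minus strand: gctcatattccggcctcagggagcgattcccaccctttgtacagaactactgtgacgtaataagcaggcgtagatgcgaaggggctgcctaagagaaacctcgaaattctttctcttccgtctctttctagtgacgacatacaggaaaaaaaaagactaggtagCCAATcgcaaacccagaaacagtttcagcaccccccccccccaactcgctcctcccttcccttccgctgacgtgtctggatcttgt
Brca2, chr5:150522371-150522620, plus strand: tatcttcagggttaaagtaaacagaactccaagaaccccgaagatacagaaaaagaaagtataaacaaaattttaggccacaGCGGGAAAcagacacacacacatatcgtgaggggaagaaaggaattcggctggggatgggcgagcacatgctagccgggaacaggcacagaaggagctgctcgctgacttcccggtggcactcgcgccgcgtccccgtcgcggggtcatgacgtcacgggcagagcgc
Blm, chr7:80534999-80535248, minus strand: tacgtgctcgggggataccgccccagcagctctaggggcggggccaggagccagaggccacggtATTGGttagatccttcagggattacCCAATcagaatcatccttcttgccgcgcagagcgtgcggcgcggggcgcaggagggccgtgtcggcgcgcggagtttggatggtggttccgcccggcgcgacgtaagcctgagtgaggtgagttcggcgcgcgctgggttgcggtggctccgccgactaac
NF-Y acts at many promoters, including those of cell cycle genes, and E2F and CHR motifs are common in genes of the cell cycle. Of the 7 members with a window in the promoter table, 4 held a CCAAT box (Rad54l 46 bases before the start site, Brca1 82, Rad51ap1 32 and 226, Blm 157 and 182), against 34.5% of all 27025 windows of the same length. An E2F motif stood in 2 of 7, Brca2 at 161 and Bard1 at 202 bases, against 1.91% of windows. TTTGAA stood in 1 of 7, Bard1, against 16.3%, and Palb2 held no match to any of these letters. The matches did not overlap. Rad54l has a second start site 1 base away. A match describes letters only, and both Rad54l and Rad51ap1 shared the CCAAT box with Brca1 and Blm.

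**Figure D1:**
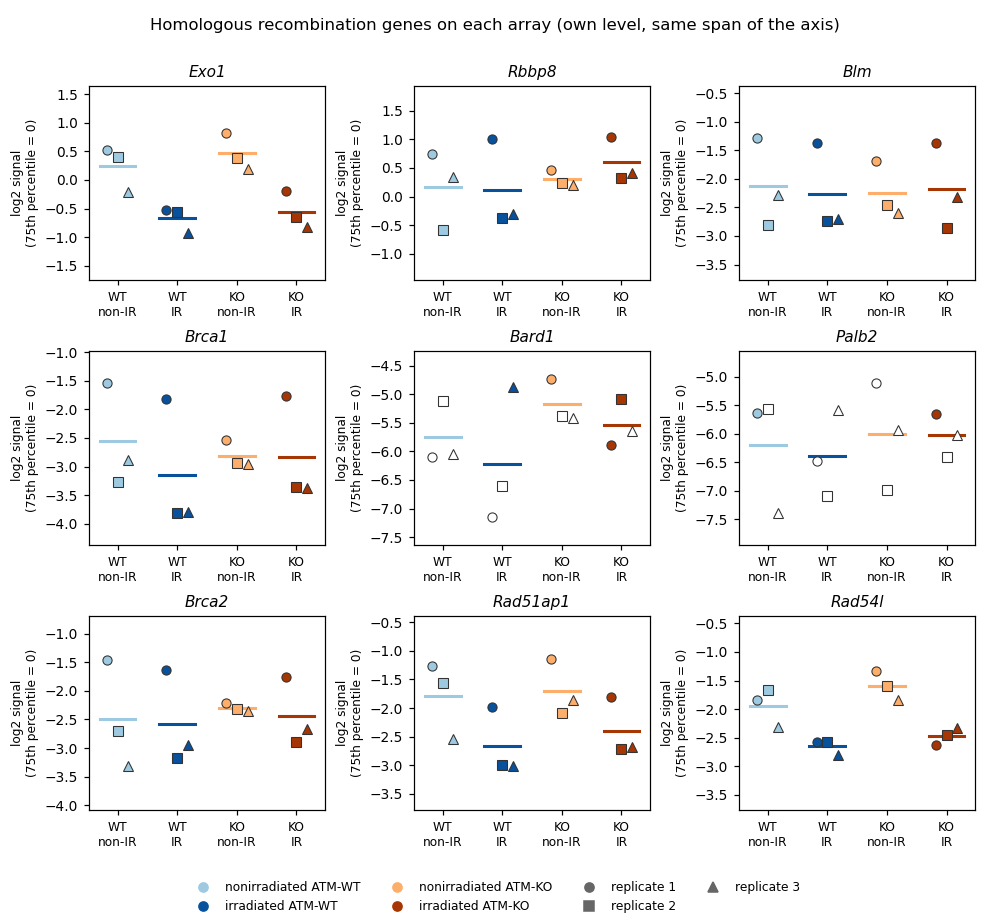
Each panel plots 1 gene by its brightest probe: the y axis is log2 signal, with each array's 75th percentile at 0, over the same span in every panel, and the x axis the 4 groups (IR, irradiated). Points are single arrays, shaped by replicate number and open where not well above background, and bars are means of 3 arrays. Exo1 and Rad54l separate by irradiation in both genotypes, whereas in Brca1, Brca2 and Blm the arrays numbered 1 stand above the others.

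Among the trimming genes, Exo1 was lower in irradiated cells of both genotypes. Its level was 0.52, 0.41 and -0.21 in nonirradiated ATM-WT replicates 1, 2 and 3, and -0.52, -0.56 and -0.93 in irradiated ATM-WT replicates. The ATM-KO replicates read 0.82, 0.38 and 0.19 without irradiation, and irradiated ones -0.20, -0.64 and -0.83. Every irradiated array lay below every nonirradiated array of its genotype. In bulk RNA, fewer cells that express a gene and less of its RNA per cell cannot be told apart. Each same-numbered pair lay on 1 slide, and within pairs the difference was -1.04, -0.97 and -0.72 in ATM-WT, and -1.02 in each of the 3 ATM-KO pairs. In the fit by group the difference was -0.91 ± 0.286 (limma SE, n = 3 arrays per group; 1.88-fold lower) in ATM-WT, with adjusted p = 0.388. In ATM-KO it was -1.02 ± 0.286 (2.03-fold lower), with adjusted p = 0.298, and neither passed the threshold of 0.05 after Benjamini-Hochberg adjustment over all 18429 features.

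Same-numbered samples of a genotype deviated together across all features, so the replicate pair was also fitted as a block. In ATM-KO replicates 2 and 3 also deviated together across numbers, so pairs 2 and 3 are less certain there. With the pair as a block the SE for Exo1 was 0.170, and it passed in ATM-WT (adjusted p = 0.0289) and in ATM-KO (adjusted p = 0.0244). It was the only member to pass in either genotype, where 0.624% of features were called lower in ATM-WT and 0.868% in ATM-KO. The call rested on all 3 pairs. Without pair 1, 2 or 3 the adjusted p in ATM-WT was 0.0881, 0.291 and 0.180 at differences of -0.85, -0.88 and -1.01. In ATM-KO it was 0.0932, 0.0863 and 0.228, at -1.02 each time.

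Rbbp8, which begins the trimming, showed no such difference. Its level was 0.74, -0.58 and 0.34 in nonirradiated and 1.01, -0.37 and -0.30 in irradiated ATM-WT replicates. In ATM-KO it was 0.46, 0.23 and 0.21 without and 1.05, 0.32 and 0.42 with irradiation. The groups overlapped in both genotypes, although all 3 ATM-KO pairs were higher after irradiation. The difference was -0.06 ± 0.415 in ATM-WT (95% confidence interval -0.96 to 0.85) and 0.30 ± 0.415 in ATM-KO (-0.61 to 1.20).

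Blm, the helicase that also dissolves joined recombination intermediates, stood at -1.29, -2.80 and -2.28 in nonirradiated and -1.38, -2.74 and -2.70 in irradiated ATM-WT replicates. In ATM-KO the values were -1.69, -2.45 and -2.60 without irradiation and -1.37, -2.86 and -2.32 with it. The groups overlapped, and replicate 1 was the highest of its group each time. The difference was -0.15 ± 0.505 in ATM-WT (-1.25 to 0.95) and 0.07 ± 0.505 in ATM-KO (-1.03 to 1.16).

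Brca1, which promotes trimming and acts after it, was lower after irradiation in all 3 ATM-WT pairs and in 2 of 3 ATM-KO pairs. In each genotype its mean difference was smaller than the SD between the arrays of a group. Between pairs the SD was 0.321 in ATM-WT, less than the mean difference there, and 0.681 in ATM-KO. With the pair as a block the adjusted p was 0.334 in ATM-WT and 0.963 in ATM-KO. The brighter Brca1 probe read -1.53, -3.27 and -2.88 in nonirradiated and -1.81, -3.82 and -3.80 in irradiated ATM-WT replicates. In ATM-KO it read -2.53, -2.94 and -2.96 without irradiation and -1.77, -3.36 and -3.38 with it. The 4 groups overlapped. The difference was -0.58 ± 0.613 in ATM-WT (95% confidence interval -1.91 to 0.75) and -0.03 ± 0.613 in ATM-KO (-1.36 to 1.31). Without the arrays numbered 1, an alternative chosen after seeing the data, it was -0.73 in ATM-WT and -0.42 in ATM-KO. The dimmer Brca1 probe was well above background on 0 of 12 arrays.

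Brca2, which Palb2 brings to the break, read -1.46, -2.70 and -3.31 in nonirradiated and -1.64, -3.18 and -2.94 in irradiated ATM-WT replicates on its brighter probe. In ATM-KO it read -2.22, -2.32 and -2.35 without irradiation and -1.75, -2.89 and -2.67 with it. The 3 nonirradiated ATM-KO arrays were the closest of any group (SD 0.0660), against SDs of 0.601 to 0.946 in the other groups. The difference was -0.10 ± 0.501 in ATM-WT and -0.14 ± 0.501 in ATM-KO. The dimmer Brca2 probe, above background on 9 of 12 arrays, did not follow the brighter one. Its pair differences were -0.64, -0.91 and -0.64 in ATM-WT and -1.40, 0.18 and 0.21 in ATM-KO.

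Bard1, the partner of Brca1, and Palb2, which links Brca1 to Brca2, stayed near background. Bard1 ranged from -7.15 to -4.73, with a median of -5.54, and was well above background on 4 of 12 arrays. Palb2 ranged from -7.38 to -5.12, with a median of -5.98, and was above background on 2. Whether either differed between groups was not detectable at these signals, and no fold is given.

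The genes that help the broken strand pair with intact DNA were both lower in all 6 pairs. Rad54l, the motor protein, read -1.84, -1.66 and -2.31 in nonirradiated and -2.58, -2.57 and -2.80 in irradiated ATM-WT replicates. In ATM-KO it read -1.33, -1.59 and -1.84 without irradiation and -2.62, -2.45 and -2.33 with it. Irradiated and nonirradiated arrays did not overlap in either genotype. The difference was -0.71 ± 0.243 in ATM-WT (1.64-fold lower, adjusted p = 0.490) and -0.88 ± 0.243 in ATM-KO (1.84-fold lower, adjusted p = 0.289). With the pair as a block the adjusted p was 0.129 and 0.0661, short of the threshold.

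Rad51ap1, which promotes strand pairing, read -1.26, -1.57 and -2.55 in nonirradiated and -1.99, -3.00 and -3.02 in irradiated ATM-WT replicates. In ATM-KO it read -1.15, -2.09 and -1.86 without irradiation and -1.80, -2.71 and -2.69 with it. The groups overlapped, since replicate 1 of each irradiated group lay within the nonirradiated range. The pair differences were -0.72, -1.43 and -0.47 in ATM-WT and -0.66, -0.62 and -0.82 in ATM-KO. The difference was -0.87 ± 0.425 in ATM-WT (adjusted p = 0.826) and -0.70 ± 0.425 in ATM-KO (adjusted p = 0.768). With the pair as a block the adjusted p was 0.0817 and 0.128.

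**Figure D2:**
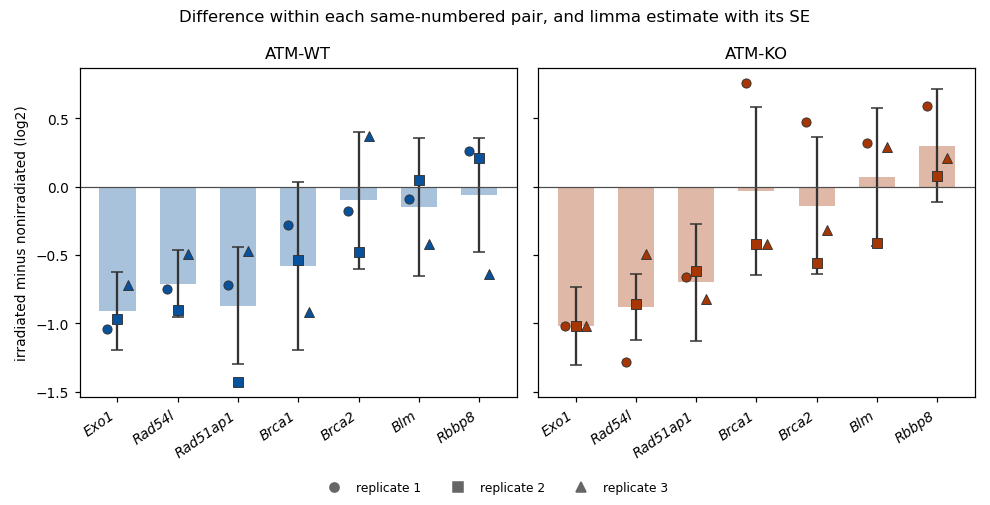
Points give the irradiated minus nonirradiated difference (log2, y axis) within each same-numbered pair for the 7 tested members (x axis), in ATM-WT (left) and ATM-KO (right). Bars are the limma estimate by group with its standard error, and Exo1, Rad54l and Rad51ap1 lie below 0 in all 6 pairs.

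Counted over the 7 tested members, the fit by group called 0 in either irradiation comparison, where it called 0.445% of all features in ATM-WT and 0.00543% in ATM-KO. At an unadjusted p under 0.05 it held 2 members, Exo1 and Rad54l, in each genotype, against 6.46% of features in ATM-WT and 7.93% in ATM-KO. Lower in all 3 ATM-WT pairs were 4 of 7 members, against 25.7% of features, and in all 3 ATM-KO pairs 3 of 7, against 23.4%. Exo1, Rad54l and Rad51ap1 were lower in all 6 pairs, against 14.3% of features. Exo1 and Rad54l were lower without overlap in ATM-WT (5.70% of features), in ATM-KO (10.4%) and in both (2.91%). The members' median difference was -0.58 in ATM-WT and -0.14 in ATM-KO, against -0.02 and -0.05 over all features. The ATM-WT median rested on single arrays. It was -0.07 without nonirradiated ATM-WT replicate 1, -0.24 without irradiated replicate 2 and -0.25 without irradiated replicate 3. The ATM-KO median was -0.56 without irradiated ATM-KO replicate 1, 0.08 without irradiated replicate 2 and -0.02 without irradiated replicate 3, and under normexp it was -0.04.

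Whether the irradiation difference depended on ATM was tested directly, as the ATM-KO difference minus the ATM-WT difference. No member passed, with the fit by group (0.00543% of features called, smallest unadjusted p over the 7 members 0.534) or with the pair as a block (0.0217%, smallest unadjusted p 0.168). For Exo1 it was -0.11 ± 0.405, with a 95% confidence interval of -0.99 to 0.77, and for Rad54l it was -0.17 ± 0.344 (-0.91 to 0.58). For Rad51ap1 it was 0.17 ± 0.600 (-1.13 to 1.48), and for Brca1, the widest, 0.55 ± 0.866 (-1.33 to 2.44). The interval of Rad54l thus holds a dependence on ATM as large as its irradiation difference in ATM-KO (-0.88). Brca2, Blm and Rbbp8 gave -0.04, 0.22 and 0.35.

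Between genotypes, all 7 tested members overlapped in nonirradiated and in irradiated cells. The share of all features that overlapped was not counted, so the overlap says nothing particular about the members. Nonirradiated, ATM-KO minus ATM-WT ran from -0.25 ± 0.613 for Brca1 to 0.35 ± 0.243 for Rad54l, with 0 members called against 0.857% of features. With the replicate number as a block, which the data did not bear out as a pairing for these groups, 0 members were called against 1.71%. At an unadjusted p under 0.05 there was no member by either fit, against 7.52% of features by group and 13.5% with the block, so that 0 of 7 is near the background. In irradiated cells the values ran from 0.09 ± 0.505 for Blm to 0.48 ± 0.415 for Rbbp8. All 7 were positive, where 50.9% of all features were negative. Several members varied together over the arrays, so these are not 7 separate observations. By group 0 members were called against 0.206% of features, and with the replicate number as a block 0 against 0.760%. Again none had an unadjusted p under 0.05 (5.23% and 8.50% of features). The members' median was 0.13 and 0.18 in the 2 comparisons, against 0.04 and -0.01 over all features. Both medians moved with the processing and with single arrays. The first was -0.32 under normexp background correction, the second 0.14, and with the slide as a random block they were 0.33 and 0.35. The first was -0.20 without nonirradiated ATM-WT replicate 3 and 0.36 without its replicate 1, and 0.04 and 0.21 without nonirradiated ATM-KO replicates 1 and 2. The second was 0.61, 0.10 and -0.01 without irradiated ATM-WT replicates 1, 2 and 3, and -0.07, 0.42 and 0.27 without irradiated ATM-KO replicates 1, 2 and 3. On slide 2, the only slide with both genotypes, the differences rest on ATM-WT pair 3 and ATM-KO pair 1, with 1 array per group. There ATM-KO was higher for all 7 members, by 0.12 (Rbbp8) to 1.41 (Rad51ap1) without irradiation and by 0.18 (Rad54l) to 2.03 (Brca1) with it. The share of all features higher on that slide was not counted. Over the 12 arrays all 7 members were also higher on those numbered 1 (median 0.89). Genotype and replicate number therefore cannot be told apart on slide 2.

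The 48 other genes of a wider homologous recombination list, of which 43 were tested, gave the surrounding pathway. In ATM-WT 31 of 43 were lower after irradiation, with a median of -0.30, and in ATM-KO 34 of 43, with a median of -0.19. Of all features 53.2% and 54.7% were lower, with medians of -0.02 and -0.05. All 3 subunits of RPA, the protein that coats single-stranded DNA, are on the list. Rpa1 fell in ATM-WT by 1.23 on the log2 scale (SE 0.238, adjusted p = 0.0499), and it was the only listed gene called by the fit by group. It lost this call when any single array other than the ATM-KO replicates 1 was left out (adjusted p from 0.0864 to 0.225). With the pair as a block Rpa1 (adjusted p = 0.0163), Rpa3 (-0.94, adjusted p = 0.0499) and Fignl1 (-0.96, adjusted p = 0.0480) were called lower in ATM-WT. Rpa3 was called lower in ATM-KO (-1.07, adjusted p = 0.0342). Leaving out single pairs ended the Rpa3 and Fignl1 calls in ATM-WT (adjusted p 0.0919 to 0.379), and the Rpa3 call in ATM-KO without pair 1 (0.131) or pair 3 (0.257).

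In the other 3 comparisons no gene of the wider list was called by either fit. The difference of the irradiation effects ran from -0.50 (Rtel1, a helicase) to 0.66 (Rpa1). Between genotypes without irradiation the values ran from -0.76 (Rpa1) to 0.48 (Recql4), and after irradiation from -0.83 (Rad51b) to 0.57 (Wrn). Rad51b was also lower in nonirradiated ATM-KO cells, at -0.70 ± 0.272. Without the arrays numbered 1, chosen after seeing the data, Rpa1 (-0.91, adjusted p = 0.0288) and Rad51b (-1.06, adjusted p = 0.00899) passed between genotypes in nonirradiated cells, where 8.57% of features did. Rad51b also passed in irradiated cells (-0.93, adjusted p = 0.0192), where 5.66% did. The planned fit with the replicate block and without replicate 1 called the same genes, with 10.4% and 6.73% of features called.

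Since these genes are expressed mostly in dividing cells, lists of S phase and mitosis genes were measured on the same arrays. All 16 S phase genes were lower after irradiation in both genotypes, with medians of -0.68 in ATM-WT and -0.69 in ATM-KO. Of 16 mitosis genes, 16 were lower in ATM-WT and 15 in ATM-KO, with medians of -0.87 and -1.09. The fit by group called 0 S phase and 0 mitosis genes in either genotype. With the pair as a block 1 and 3 S phase genes, and 6 and 8 mitosis genes, were called lower in ATM-WT and ATM-KO. Of all features the block called 0.624% and 0.868% lower. Ccnb1, the cyclin of mitotic entry, was -1.21 ± 0.460 and -1.12 ± 0.460, and Ccna2, the cyclin of S and G2 phase, -1.10 ± 0.456 and -1.17 ± 0.456. Mcm2, which belongs to the helicase that opens DNA for replication, was -0.69 ± 0.229 and -0.85 ± 0.229, and the proliferation marker Mki67 -0.90 ± 0.660 and -0.37 ± 0.660. The part of the cycle genes in the values of Exo1, Rad54l and Rad51ap1 was not tested.

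**Figure D3:**
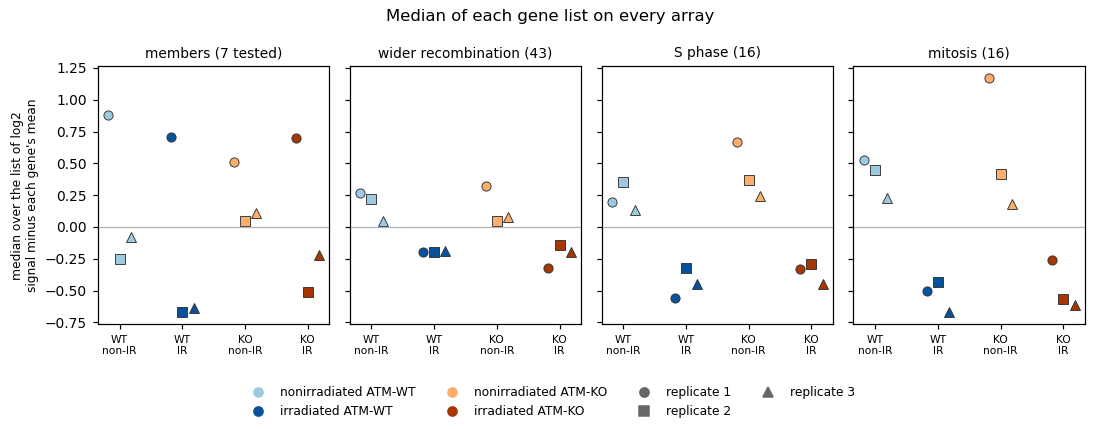
Each point is 1 array, and the y axis is the median over a gene list of log2 signal minus each gene's mean over 12 arrays, with the 4 groups on the x axis (IR, irradiated). The S phase, mitosis and wider lists lie lower on every irradiated array than on the nonirradiated arrays of the same genotype, while the members' median is high on all 4 arrays numbered 1.

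The members did not vary as a single block over the 12 arrays. Exo1, Rad54l and Rad51ap1 varied together, with Pearson's r of 0.913 between Exo1 and Rad54l, 0.879 between Exo1 and Rad51ap1 and 0.732 between Rad51ap1 and Rad54l. Brca1 varied with Blm (r = 0.933), Brca2 (0.888) and Rbbp8 (0.846). Across these sets r ran from -0.0904 (Rbbp8) to 0.227 (Brca2) for Rad54l, and from 0.0772 (Rbbp8) to 0.440 (Brca1) for Exo1. For Rad51ap1 it ran from 0.383 (Rbbp8) to 0.728 (Brca2). Rad51ap1 thus lay between the sets, as near to Brca1 (0.720) and Brca2 as to Rad54l. These correlations are descriptions over arrays that share groups, slides and brightness.

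In Brca1, Brca2, Blm and Rbbp8 all 4 arrays numbered 1, irradiated or not and of either genotype, were the highest of the 12, a pattern noticed after seeing the values. It was shared by 737 of the 18429 features. The mean of the arrays numbered 1 exceeded that of the other 8 by 1.39 in Brca1, 1.16 in Blm, 1.03 in Brca2 and 0.78 in Rbbp8. In Rad51ap1, Exo1 and Rad54l it did so by 0.89, 0.43 and 0.10, against a median of -0.17 over all features. The wider list (median 0.06), the S phase list (0.11) and the mitosis list (0.35) differed less between these arrays than the 7 members (median 0.89). The 3 arrays with the highest 75th percentile of signal, all numbered 1, held the 3 highest values of the same 4 genes, as in 14.0% of features. The excess differed between ways of making the values. Under quantile normalization it was 1.25, 1.02, 0.88 and 0.85 in Brca1, Blm, Brca2 and Rbbp8, and under normexp, which starts from median spot and background signals in place of processed signal, it was 0.61, 0.61, 0.39 and 0.69, with all 4 arrays numbered 1 highest in Rbbp8 alone among the members. Epithelial and neural markers were higher on all 4 arrays numbered 1. Skeletal muscle and endothelial markers, each with 2 of 5 above background on all arrays, were higher there in ATM-KO only. The summed level of the 5 epithelial markers, of which 4 were above background on all arrays, was 2.29, 3.02, 4.45 and 4.94 on the arrays numbered 1 (nonirradiated and irradiated ATM-WT, then ATM-KO), against 0.976 to 1.53 on the other 8. The 4 neural markers with a probe, all above background on all arrays, summed to 7.49, 5.04, 11.9 and 7.34, against 2.52 to 4.53. Fibroblast markers summed to 1742, 1449, 2158 and 1437, against 2044 to 2695. Skeletal muscle markers summed to 2.60 and 3.91 on the ATM-WT arrays numbered 1, below the other ATM-WT arrays (5.86 to 8.65). In ATM-KO they summed to 11.2 and 9.20, against at most 2.34. Endothelial markers summed to 0.553 and 0.598 in ATM-WT, within the others (0.534 to 0.641), and to 0.511 and 1.19 in ATM-KO, against 0.177 to 0.296. Adipocyte markers summed to 12.1, 10.9, 8.46 and 6.04, against 3.89 to 7.54. Replicate number, array brightness, slide and the markers that moved overlap here, and their part in the members' values was not tested.

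**Figure D4:**
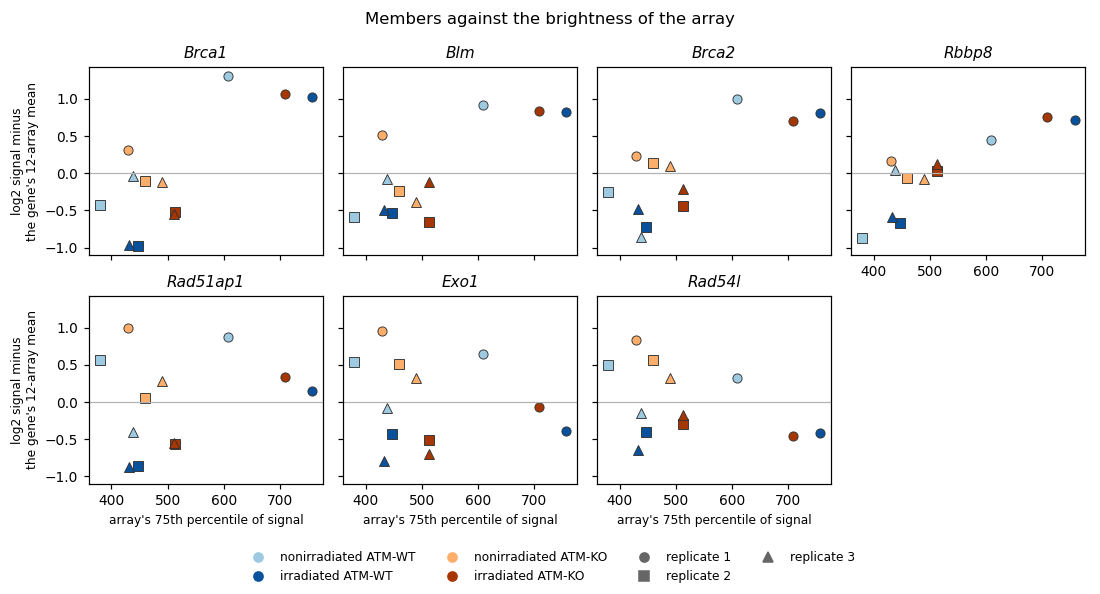
Each panel plots 1 tested member, with the array's 75th percentile of signal on the x axis and log2 signal minus the gene's 12-array mean on the y axis, coloured by group and shaped by replicate number. In Brca1, Blm, Brca2 and Rbbp8 the 3 brightest arrays hold the 3 highest values, and in Exo1 and Rad54l the order instead follows irradiation.

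The 10 named genes outside the members that were most like the members' mean profile, by Pearson's r over 12 arrays, were Fbxo5 (0.982), Sgo1 (0.979), Fanci (0.972), Parp2 (0.971), Ncapg (0.968), Mki67 (0.962), Slc38a4 (0.959), Cenpu (0.958), Klhl23 (0.956) and Ect2 (0.956). Fbxo5 restrains the anaphase-promoting complex, Sgo1 protects sister chromatid cohesion, Fanci belongs to the Fanconi pathway of crosslink repair and Parp2 marks broken DNA. The members' mean profile was highest on the arrays numbered 1, at 0.79, 0.39, 0.57 and 0.45, against -0.69 to 0.12 on the others. A high r therefore reflects the replicate number as well as irradiation. That all 10 were lower after irradiation on average in both genotypes follows from the choice, since the members' mean profile is itself lower there. Their differences ran from -0.36 (Parp2) to -1.02 (Slc38a4) in ATM-WT and from -0.20 (Parp2) to -0.73 (Slc38a4) in ATM-KO.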

How the data were processed

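Per the labels' protocols, Trizol RNA was labelled with Cy3. The deposited scanner output gives the intensity of each spot, read by Feature Extraction 10.7.1.1 from Agilent design 014868 (genome build mm9), per the file headers. The submitters' processing notes name version 11.0, and this was not resolved. A log2 matrix from the authors, used as an alternative, followed the scanner values over 41174 matched probes (r of at least 0.9975) after scaling by 75th percentile and centring of probes on their medians.

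Control spots were left out, and the 75th percentile of processed signal over the remaining spots was subtracted on each array, in log2. Spots of a probe were then averaged. Outlier spots were left out of this mean only where the probe had another spot, so the 1 spot of each member probe always stayed. Probes were named by accession through RefSeq's gene table, as succeeded for 25097 of 41174. A gene was represented by its probe with the highest mean. No spot was saturated, and probes well above background made up 55.3% to 64.5% per array. Precision is limited by the number of arrays.

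A group-means model over all 12 arrays was fitted with limma 3.58.1 in R 4.3.3 (8 residual and 4.13 prior degrees of freedom; files read with version 1.17.8 of data.table), with eBayes and Benjamini-Hochberg adjustment over 18429 features (12805 named genes) at 0.05. It was tested on simulated data. A second fit took the replicate number as a block (4 residual and 5.04 prior degrees of freedom). Whether numbers pair samples was checked from the correlation of deviations from group means. For irradiation it was 0.481 to 0.852 in ATM-WT and 0.269 to 0.509 in ATM-KO, so these pairs were used. Differently numbered samples gave at most 0.301 in ATM-WT. In ATM-KO replicates 2 and 3 gave 0.334 and 0.284 with each other, above the 0.269 of pair 2. The ATM-KO values therefore set replicate 1 apart but do not clearly separate pair 2 from pair 3. Between genotypes the correlation of same-numbered samples was -0.218 to 0.178 in nonirradiated cells and 0.217 to 0.628 in irradiated cells. Alternatives were normexp (offset 50) on median spot and background intensity, quantile normalization, the matrix, 2 other filters, 2 other probe rules, outlier spots kept, the slide as a block, only the groups compared, and arrays left out.

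The text names all members, the wider list's genes called by either fit for irradiation and its lowest and highest in the other comparisons (others were left out for length, and 1 gene of the list is not reported here), 4 cycle genes, Atm, and the 10 genes most like the members. Members and lists were chosen with earlier results of these data known.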

Additional observations from a re-analysis of the deposited data

How the results depend on the processing

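Exo1, Rad54l and Rad51ap1 kept their negative irradiation difference in both genotypes under all 28 alternatives, from -1.20 to -0.77 for Exo1, from -1.07 to -0.51 for Rad54l and from -1.25 to -0.42 for Rad51ap1. Many of these could not change the difference. The filters, probe rules and outlier rule leave genes with 1 probe of 1 spot as they are. Irradiation is balanced within pairs and slides, so blocks on all arrays keep the difference. So do fits of only the groups compared, and leaving out an array of the other genotype. No member was called under any alternative, except that the replicate block called 1 in ATM-WT and 1 in ATM-KO, Exo1 in each, and the block changed no other member's call. With the slide as a fixed block, which leaves the genotype comparison to slide 2, the members' median between genotypes was 0.92 in nonirradiated and 1.07 in irradiated cells. On slide 2 the ATM-KO arrays are those numbered 1, so genotype and replicate number cannot be told apart there. Each of the following values belongs to a member, or to Recql4 or Wrn, that was called neither before nor after its sign turned, and the cause was not tested. Under normexp the sign turned for irradiation in ATM-KO Brca1 (0.07), for the difference of the irradiation effects Brca2 (0.59) and Rad54l (0.34), for genotype in nonirradiated cells Brca2 (-0.46), Rad51ap1 (-0.32), Rad54l (-0.08) and Recql4 (-0.01). With the mean over probes it turned for the difference of the irradiation effects Brca1 (-0.02) and Brca2 (0.17), for genotype in irradiated cells Brca1 (-0.15). With the slide fixed it turned for genotype in nonirradiated cells Brca1 (0.92) and Blm (0.85). With the slide random it turned for genotype in nonirradiated cells Blm (0.08). With the replicate block and without replicate 1 it turned for irradiation in ATM-KO Blm (-0.06), for the difference of the irradiation effects Rad54l (0.02), for genotype in nonirradiated cells Brca1 (0.13) and Blm (0.01). With the replicate block and without replicate 2 it turned for irradiation in ATM-WT Brca2 (0.10), for irradiation in ATM-KO Brca1 (0.17) and Brca2 (0.07), for the difference of the irradiation effects Rad51ap1 (-0.14), for genotype in nonirradiated cells Rbbp8 (-0.21). With the replicate block and without replicate 3 it turned for irradiation in ATM-WT Rbbp8 (0.24), for irradiation in ATM-KO Brca1 (0.17) and Blm (-0.04), for the difference of the irradiation effects Brca2 (0.28) and Blm (-0.03), for genotype in nonirradiated cells Brca2 (-0.19) and Rad51ap1 (-0.20), for genotype in irradiated cells Blm (-0.05). Without any array numbered 1 and with no block, chosen after seeing the data, it turned for irradiation in ATM-KO Blm (-0.06), for the difference of the irradiation effects Rad54l (0.02), for genotype in nonirradiated cells Brca1 (0.13) and Blm (0.01). For irradiation in ATM-WT in Brca2 (-0.57 to 0.42), Blm (-0.60 to 0.26) and Rbbp8 (-0.50 to 0.23) single arrays turned it when left out. For irradiation in ATM-KO in Brca1 (-0.56 to 0.25), Blm (-0.34 to 0.40) and Brca2 (-0.48 to 0.08) single arrays turned it when left out. For the difference of the irradiation effects in Rad51ap1 (-0.13 to 0.55), Blm (-0.20 to 0.67), Brca2 (-0.56 to 0.43), Rad54l (-0.30 to 0.02) and Exo1 (-0.29 to 0.12) single arrays turned it when left out. For genotype in nonirradiated cells in Brca1 (-0.60 to 0.27), Blm (-0.46 to 0.29), Rbbp8 (-0.24 to 0.42), Brca2 (-0.22 to 0.71), Rad51ap1 (-0.28 to 0.36) and Exo1 (0.00 to 0.36) single arrays turned it when left out. For genotype in irradiated cells in Brca1 (-0.23 to 0.97), Brca2 (-0.19 to 0.63), Blm (-0.31 to 0.54), Wrn (-0.11 to 1.11), Exo1 (-0.07 to 0.25) and Rad51ap1 (-0.03 to 0.61) single arrays turned it when left out. Counts of all features called moved more. The fit by group called 82, 1, 1, 158 and 38 (irradiation in ATM-WT and ATM-KO, their difference, genotype in nonirradiated and irradiated cells), the replicate block 417, 378, 4, 315 and 140, normexp 44, 0, 0, 62 and 13, the slide as a fixed block 139, 1, 0, 34 and 3, and the fit without arrays numbered 1 167, 0, 0, 1580 and 1044. Leaving out single arrays gave 49 to 101, 0 to 2, 0 to 1, 57 to 225 and 3 to 106. Same-numbered nonirradiated samples of the 2 genotypes did not deviate together, so the block there is only a shared number. Signals near background limit Bard1, Palb2 and the dimmer Brca1 probe.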
